A study of Danio rerio with 15 samples.

Results

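Potassium channel genes were followed through anaemia and recovery in the zebrafish heart. They were taken as every gene whose single symbol in the array annotation starts with kcn, in upper or lower case, and a gene with several transcript clusters (groups of probes that stand for a gene) was read from the cluster with the highest mean. This gave 119 genes of 19260 with a single symbol. Of these, 29 had a mean of at least 5 on the log2 scale over all arrays and are described by name, and 90 were dimmer and are given apart. At the limit, kcnab1b (mean 5.03), kcnk3b (5.06) and kcnn1a (5.09) lay just inside, and kcnj19a (4.88), kcnc3b (4.87) and kcnj9 (4.80) just outside.

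The series holds 15 whole-transcript arrays of ventricles from zebrafish (Danio rerio), each with the RNA of 3 pooled ventricles, in 5 groups of 3 arrays. The groups were fish just after 5 weeks of exposure to phenylhydrazine (PHZ, which lyses red cells and makes the fish anaemic), called end of treatment, fish 2 days, 5 days and 9 days after the treatment ended, and control fish. Treated fish were bathed for 30 min every 3 days, with 1.25 µg/mL PHZ during week 1 and 2.5 µg/mL from then on, and control fish went through the same baths without the compound. The labels give no strain, genotype, age or sex and no sampling day for control fish, so recovery and sampling day cannot be told apart.

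Potassium channels let potassium out of the heart muscle cell and so set its resting potential and end each action potential. Voltage-gated channels of the kcna, kcnc, kcnh and kcnq families open on depolarisation. Inward rectifiers (kcnj) hold the resting potential or respond to ATP or to G proteins, and tandem-pore channels (kcnk) carry background current. Channels of the kcnn family open with calcium. Accessory subunits (kcne, kcnab, kcnip) and silent subunits (kcng) form no channel alone but change those they join. In mammals, remodelling of potassium channels is a known feature of heart failure.

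Array medians over all 75212 clusters lay between 4.022 and 4.095, and correlations across genes were 0.989 to 0.993 between arrays of a group. Over the genes tested, centring arrays on their medians shifted the median difference between end of treatment and control by -0.116. The 9 cardiomyocyte markers measured averaged 11.81 to 11.98 on end of treatment arrays, 11.81 to 12.10 on recovery arrays and 11.96 to 12.01 on control arrays, but single markers moved: at the end of treatment nppa rose by 1.40 ± 0.09, and ttn.2, cmlc1 and tnnt2a fell by 0.97 ± 0.18, 0.23 ± 0.05 and 0.19 ± 0.05. Signal of myh6, an atrial myosin gene in zebrafish, was also present, with means of 10.57 at the end of treatment, 10.78 at 2 days, 10.32 at 5 days and 10.64 at 9 days, against 11.35 in control. Its arrays lay below control without overlap at each time, and the difference passed the test at 5 days (adjusted p = 0.0374). The 5-day arrays of myh6 spread widely (11.15, 9.31 and 10.50), and whether that call holds without the low array is not given here. The 6 atrium or pacemaker markers averaged 5.83 to 5.85 at the end of treatment, 6.01 to 6.26 at 2 days, 6.27 to 6.37 at 5 days and 6.01 to 6.23 at 9 days, against 6.40 to 6.66 in control, and isl1a and shox2 had means under 5. At the end of treatment 3 of the 6 fell, among them hcn4, a pacemaker channel gene, by 2.37 ± 0.12 (adjusted p = 2.85e-09). The differences of bmp4 (-0.54 ± 0.14) and tbx18 (-0.69 ± 0.18) were smaller. Not called were nr2f1a (-0.12 ± 0.18), isl1a (-0.18 ± 0.15) and shox2 (-0.20 ± 0.13), so the 6 did not fall alike. Markers of other cells moved with the groups. The mean of 6 erythroid markers was 9.04 to 9.56 at the end of treatment, 10.03 to 10.28 at 2 days, 9.44 to 9.68 at 5 days and 8.90 to 9.09 at 9 days, against 7.61 to 8.63 in control. At the end of treatment 4 of the 6 were called higher, and gata1a and epb41b were not called. The 7 macrophage and leukocyte markers averaged 7.58 to 7.74 at the end of treatment and 7.06 to 7.47 over the recovery groups, against 6.19 to 6.59 in control, and the 4 endothelial markers 9.09 to 9.21 at the end of treatment against 9.14 to 9.31 in control. Single endothelial markers moved in opposite directions at the end of treatment: tek was called lower (-0.95 ± 0.13), and cdh5 (0.34 ± 0.06) and tie1 (0.28 ± 0.09) higher. The remaining marker, kdrl, was not called (-0.06 ± 0.09). All 7 nerve and glia markers measured had means under 5. The part of these cells in the results below was not tested, and in pooled ventricles fewer cells of a type and less RNA per cell cannot be told apart.

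At the end of treatment some potassium channel genes were several-fold higher and others lower than in control. The accessory gene kcne4 (7.34-fold), the voltage-gated channel gene kcnc4 (5.22-fold), the accessory gene kcnab1a (3.96-fold) and the inward rectifier gene kcnj2a (2.57-fold) rose most. The largest falls were those of kcng1, kcnab2b, kcng2 and kcnj12a. The place of kcng1 leaned on 1 low array: its log2 difference was -1.41, and -0.70 without end of treatment replicate 1. Its call was lost in 5 of 25 refits. Of the 29 brighter genes 7 rose and 7 fell by limma (48.3%), beside 36% of all 11355 genes of that brightness (21.1% higher and 14.9% lower). Over all 119 genes 8 rose and 9 fell (14.3%), beside 24.2% of all genes. The median difference of the 29 was -0.07 on the log2 scale, beside 0.02 for all genes of that brightness. On 16 of the 29 genes the arrays of the 2 groups did not overlap, beside 52% of genes of that brightness. The limit of 5 was set on the mean over all groups, so kcnab1a, kcnk3b and kcnab1b, with control means of 4.26, 4.73 and 4.90, passed it through other groups, and kcnk1a and kcnn1a had means of 4.98 to 4.99 in some recovery groups. The mean of kcnab1b was also under the limit at 9 days (4.79).

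Fewer calls were made in recovery, where all comparisons share the same control arrays. At 2 days 3 of the 29 rose and 7 fell (34.5%, beside 18% of genes of that brightness, 11.5% higher and 6.51% lower), at 5 days 3 rose and 2 fell (17.2%, beside 9.76%, 5.77% higher and 3.99% lower), and at 9 days 1 rose and 3 fell (13.8%, beside 12.2%, 6.83% higher and 5.32% lower). An F test over the 5 groups called 16 of the 29 (55.2%), beside 41.1%. The group farthest from control was the end of treatment for 12 of these 16 genes, 5 days for 2 genes, and 2 days and 9 days for 1 gene each. The same tally over all genes is not given here. Among all genes of that brightness calls against control were also most frequent at the end of treatment (36%). The pattern is therefore not shown to be particular to potassium channel genes. The later counts changed when single arrays were left out. The share of all genes called in the same refits is not given here. These drops are therefore not shown to be particular to potassium channel genes. The 2-day count of 10 was 5 without control replicate 3 and 6 without 2 days replicate 2. The 5-day count of 5 was 2 without control replicate 3 and 3 without either 5 days replicate 2 or replicate 3. The 9-day count of 4 was 2 without control replicate 2, control replicate 3 or 9 days replicate 2, and 1 without 9 days replicate 3.

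**Figure D1:**
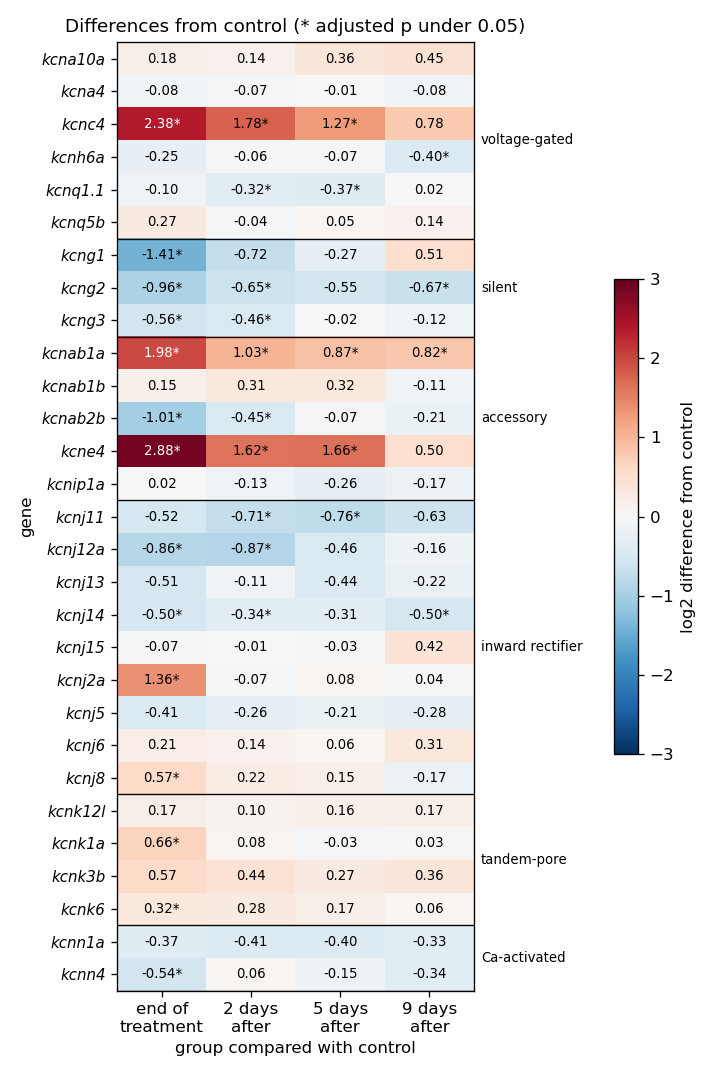
Log2 difference from control (columns: end of treatment, 2, 5 and 9 days after it) for the 29 potassium channel genes with a mean log2 of at least 5 (rows, by role), with an asterisk where limma's adjusted p was under 0.05 (n = 3 arrays per group). The strongest colours are the rises of kcne4 (2.88), kcnc4 (2.38) and kcnab1a (1.98) in the first column, where the same genes read 0.50, 0.78 and 0.82 in the 9-day column.

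Differences below are on the log2 scale, ± the standard error of limma's fit (3 arrays in each group), and p is adjusted over all genes. Levels are log2 expression values of arrays in the order of their replicate numbers, and they compare groups for 1 gene, not genes with each other.

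Among the pore-forming voltage-gated genes 1 of 6 changed at the end of treatment (16.7%, beside the 36% of all genes of that brightness). This was kcnc4 (transcript cluster 13253240), which encodes a fast inactivating channel of the Kv3 family. It read 8.51, 8.37 and 8.58 at the end of treatment, 7.85, 7.89 and 7.90 at 2 days, 6.87, 7.43 and 7.82 at 5 days, 6.22, 6.85 and 7.57 at 9 days, and 5.86, 6.28 and 6.17 in control. Every array at the end of treatment, 2 days and 5 days lay above all control arrays, and at 9 days the groups overlapped and the arrays spread widely. The rise was 2.38 ± 0.26 at the end of treatment (adjusted p = 3.92e-06), 1.78 ± 0.26 at 2 days (adjusted p = 0.000223) and 1.27 ± 0.26 at 5 days (adjusted p = 0.00659). At 9 days the difference was 0.78 ± 0.26 and did not pass the test (adjusted p = 0.0786).

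The main genes of the delayed rectifier currents moved little. In zebrafish kcnh6a (13175565) encodes the ERG channel of the rapid delayed rectifier, whose loss disturbs the heart rhythm. Its levels were 9.96, 9.87 and 9.95 at the end of treatment, 10.02, 10.01 and 10.33 at 2 days, 10.01, 10.03 and 10.28 at 5 days, 9.84, 9.76 and 9.75 at 9 days, and 10.37, 10.16 and 10.01 in control. The 9-day arrays were the lowest, and kcnh6a fell then by 0.40 ± 0.10 (1.32-fold, adjusted p = 0.0258). That call was lost without control replicate 1, control replicate 2, 9 days replicate 2 or 9 days replicate 3 (adjusted p up to 0.126), with every cluster (0.0839) and with no variance trend (0.0625). At the end of treatment its difference was -0.25 (unadjusted 95% confidence interval -0.47 to -0.04, adjusted p = 0.0846).

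The gene kcnq1.1 (13230866), for the pore of the slow delayed rectifier, was lower than control at 2 and 5 days. It read 8.17, 8.26 and 8.08 at the end of treatment, 8.01, 7.95 and 7.90 at 2 days, 7.98, 7.89 and 7.85 at 5 days, 8.22, 8.29 and 8.37 at 9 days, and 8.25, 8.15 and 8.42 in control. The 2-day and 5-day arrays all lay below the others. It fell by 0.32 ± 0.09 at 2 days (adjusted p = 0.0226) and by 0.37 ± 0.09 at 5 days (adjusted p = 0.0162), while the difference was -0.10 ± 0.09 at the end of treatment and 0.02 ± 0.09 at 9 days. Against the end of treatment neither day passed the test (adjusted p = 0.158 at 2 days and 0.0576 at 5 days). The 2-day call was lost without control replicate 1, control replicate 3, 2 days replicate 2 or 2 days replicate 3 (adjusted p up to 0.116), and the 5-day call without control replicate 3, 5 days replicate 2 or 5 days replicate 3 (adjusted p up to 0.0849). With only the arrays compared both were lost (0.0604 and 0.0737), and with every cluster the 2-day call (0.06). The other 3 voltage-gated genes, kcna4 (a transient outward channel), kcna10a and kcnq5b, did not pass the test in any comparison and differed from control by -0.08 to 0.45.

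Of 5 accessory genes 2 rose and 1 fell at the end of treatment, beside 21.1% higher and 14.9% lower among all genes of that brightness. The largest rise of any member was that of kcne4 (13022299), whose mammalian protein joins and inhibits KCNQ1 and other voltage-gated channels. It had 9.28, 9.38 and 9.19 at the end of treatment, 7.49, 7.80 and 8.81 at 2 days, 7.70, 8.18 and 8.33 at 5 days, 6.88, 7.05 and 6.79 at 9 days, and 5.85, 6.48 and 6.90 in control. The end of treatment arrays were close together and above every other array, and the 9-day arrays lay within the control range or just above it. It rose by 2.88 ± 0.28 at the end of treatment (adjusted p = 1.33e-06), by 1.62 ± 0.28 at 2 days (adjusted p = 0.000947) and by 1.66 ± 0.28 at 5 days (adjusted p = 0.00154). The 9-day difference of 0.50 ± 0.28 did not pass the test (adjusted p = 0.325). Which cells of the pooled ventricles carried the kcne4 signal, mural cells of vessels included, was not tested.

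The beta subunit genes kcnab1a and kcnab2b went opposite ways. Their proteins bind the cytoplasmic side of Kv1 channels and have the fold of an aldo-keto reductase with a bound nicotinamide cofactor. For kcnab1a (13059368) the levels were 6.39, 6.0 and 6.33 at the end of treatment, 5.39, 5.35 and 5.11 at 2 days, 5.04, 5.40 and 4.94 at 5 days, 4.97, 4.90 and 5.36 at 9 days, and 4.61, 4.39 and 3.76 in control. All treated and recovering arrays lay above all control arrays. It rose by 1.98 ± 0.20 at the end of treatment (adjusted p = 2.01e-06), 1.03 ± 0.20 at 2 days, 0.87 ± 0.20 at 5 days and 0.82 ± 0.20 at 9 days (adjusted p = 0.0197), and was the only one of the 29 called higher at 9 days. Without control replicate 3 the 5-day and 9-day calls were lost (differences of 0.63 and 0.57), and likewise without 5 days replicate 2 and without 9 days replicate 3 (adjusted p of 0.0782 and 0.0966). Both were also lost in a fit of every transcript cluster (0.0541 and 0.0708) and in a fit of only the arrays compared (0.0598 and 0.0677).

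For kcnab2b (13133363) the levels were 7.76, 7.52 and 7.52 at the end of treatment, 8.05, 8.22 and 8.20 at 2 days, 8.36, 8.75 and 8.51 at 5 days, 8.44, 8.40 and 8.35 at 9 days, and 8.62, 8.56 and 8.64 in control. The end of treatment arrays were below all others. It fell by 1.01 ± 0.10 at the end of treatment (2.01-fold, adjusted p = 1.49e-06) and by 0.45 ± 0.10 at 2 days (adjusted p = 0.00633). The differences at 5 and 9 days, -0.07 ± 0.10 and -0.21 ± 0.10, did not pass the test. The remaining beta subunit gene, kcnab1b, and the potassium channel interacting protein gene kcnip1a did not pass it in any comparison, with differences from control of -0.26 to 0.32.

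All 3 silent subunit genes measured at this brightness, kcng1, kcng2 and kcng3, fell at the end of treatment, beside 14.9% of all genes of that brightness. Of the 8 dim ones 0 were called by limma, beside 7.36% of all dim genes, and 0 had an unadjusted p under 0.05, beside 1073 of 7905. For 8 genes a count of 0 is near these shares, so it sets no contrast with the 3 brighter genes. In mammals the proteins of silent subunit genes are known to join Kv2 channels and alter how these open and close. The drop of kcng1 (13136063) was uneven, with 4.47, 6.74 and 6.48 at the end of treatment, 6.75, 6.31 and 6.72 at 2 days, 6.76, 7.04 and 7.31 at 5 days, 8.07, 7.43 and 7.95 at 9 days, and 6.85, 7.53 and 7.54 in control. End of treatment replicate 1 was far below every other array. The difference was -1.41 ± 0.41 (adjusted p = 0.0168), and -0.70 without that array (adjusted p = 0.0435). The call was lost without control replicate 2 or control replicate 3 (adjusted p up to 0.0609), with a robust variance (0.0615), in a fit of every transcript cluster (0.0634) and in a fit of the 6 arrays (0.065).

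In kcng2 (13073644) the levels were 5.79, 6.36 and 6.33 at the end of treatment, 6.63, 6.18 and 6.60 at 2 days, 6.14, 6.72 and 6.83 at 5 days, 6.40, 6.55 and 6.40 at 9 days, and 6.90, 7.11 and 7.34 in control. Each treated or recovering array was below every control array. It fell by 0.96 ± 0.19 at the end of treatment (adjusted p = 0.00113), by 0.65 ± 0.19 at 2 days (0.0351) and by 0.67 ± 0.19 at 9 days (0.0406). The 5-day difference of -0.55 ± 0.19 did not pass the test (adjusted p = 0.0985). The 2-day call was lost without any 1 of 4 arrays (control replicates 2 and 3, 2 days replicates 2 and 3), and the 9-day call without any 1 of 5 (control replicates 2 and 3 and each 9 days array). Both were lost with every cluster (adjusted p = 0.113 and 0.128) and with no variance trend (0.0524 and 0.0609).

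For kcng3 (12991582) the arrays read 6.07, 5.89 and 5.90 at the end of treatment, 5.94, 6.19 and 6.06 at 2 days, 6.55, 6.67 and 6.27 at 5 days, 6.32, 6.47 and 6.41 at 9 days, and 6.46, 6.47 and 6.62 in control. The first 2 groups lay wholly below control, and the last 2 overlapped it. It fell by 0.56 ± 0.12 at the end of treatment (adjusted p = 0.00153) and by 0.46 ± 0.12 at 2 days (adjusted p = 0.0158), a call lost without control replicate 3 or 2 days replicate 1. Differences at 5 and 9 days were -0.02 ± 0.12 and -0.12 ± 0.12.

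**Figure D2:**
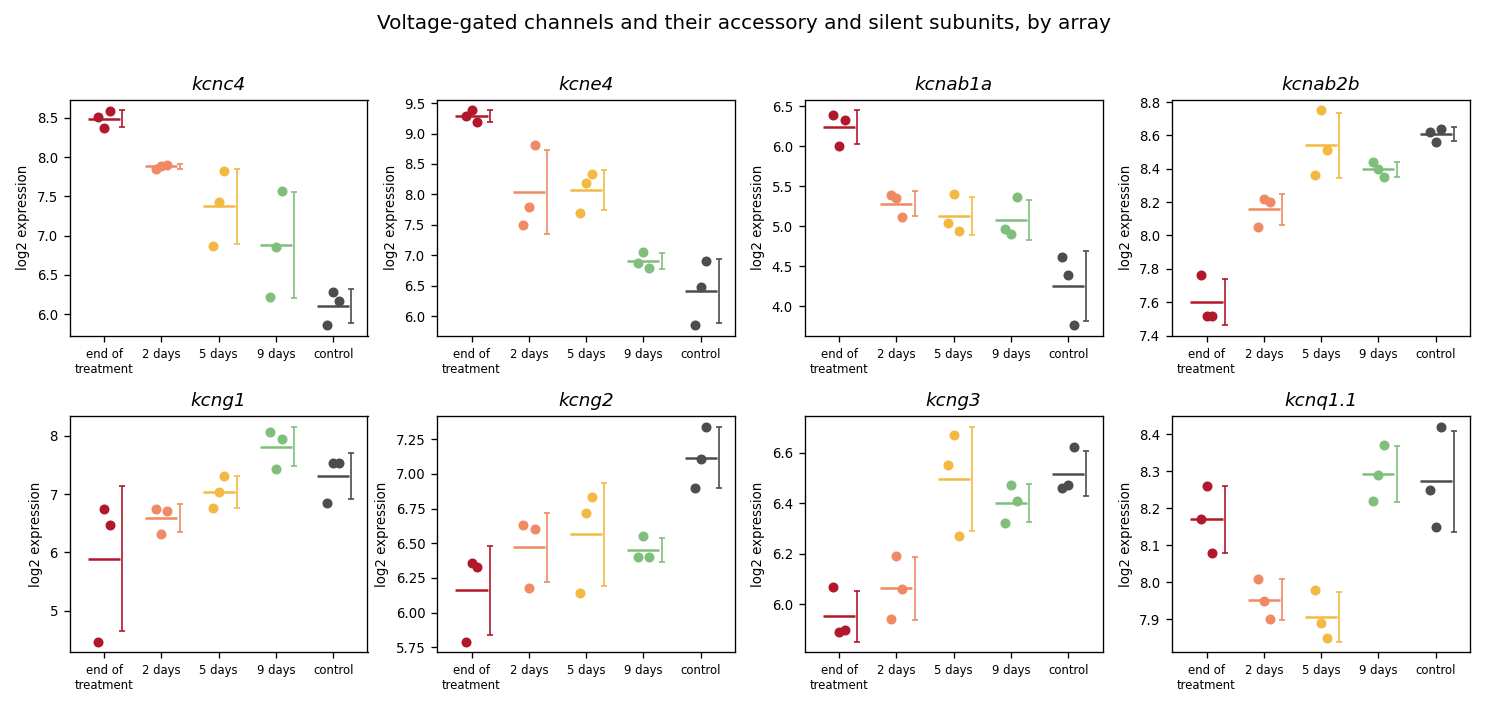
Log2 expression of 8 genes of voltage-gated channels and their accessory and silent subunits on each of the 15 arrays (points), with the group mean (line) and SD (bar, n = 3); each panel has its own vertical scale. kcnc4, kcne4 and kcnab1a are highest at the end of treatment, kcnab2b and the kcng genes lowest, and kcnq1.1 is lowest at 2 and 5 days.

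Inward rectifier genes gave 2 rises and 2 falls among 9 at the end of treatment (44.4%), a share near the 36% of all genes of that brightness. The Kir2 genes, whose channels carry the current that holds the resting potential of ventricular muscle, did not move together. For kcnj2a (12987263), the Kir2.1 gene, levels were 7.67, 8.08 and 7.59 at the end of treatment, 6.34, 6.23 and 6.49 at 2 days, 6.22, 6.45 and 6.83 at 5 days, 6.56, 6.79 and 6.03 at 9 days, and 6.51, 6.22 and 6.53 in control. The end of treatment arrays stood above all others and the remaining groups overlapped control. It rose by 1.36 ± 0.19 at the end of treatment (adjusted p = 4.9e-05). Differences from control were -0.07 ± 0.19 at 2 days (95% confidence interval -0.47 to 0.33), 0.08 ± 0.19 at 5 days and 0.04 ± 0.19 at 9 days.

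The Kir2.2 gene kcnj12a (13153026) was lower. It read 7.27, 6.73 and 6.89 at the end of treatment, 7.22, 6.94 and 6.70 at 2 days, 7.29, 7.54 and 7.26 at 5 days, 7.73, 7.59 and 7.66 at 9 days, and 7.78, 7.97 and 7.72 in control. The first 3 groups lay below control without overlap, and the 9-day arrays overlapped it. It fell by 0.86 ± 0.14 at the end of treatment (adjusted p = 0.000274) and by 0.87 ± 0.14 at 2 days (adjusted p = 0.000724), and the differences of -0.46 ± 0.14 at 5 days (adjusted p = 0.0694) and -0.16 ± 0.14 at 9 days did not pass the test.

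Another Kir2 gene, kcnj14 (13030893, Kir2.4), had 9.09, 9.08 and 8.88 at the end of treatment, 9.30, 9.06 and 9.16 at 2 days, 9.37, 9.20 and 9.04 at 5 days, 8.83, 9.07 and 9.14 at 9 days, and 9.48, 9.46 and 9.60 in control. All 12 treated and recovering arrays were below the 3 control arrays. It fell by 0.50 ± 0.10 at the end of treatment (adjusted p = 0.00159), by 0.34 ± 0.10 at 2 days (0.0389) and by 0.50 ± 0.10 at 9 days (0.00702), and differed by -0.31 ± 0.10 at 5 days (0.09). The 2-day call was lost without any 1 of 5 arrays (each control array, 2 days replicates 2 and 3), with every cluster (adjusted p = 0.112), with no variance trend (0.0787) and with cyclic loess (0.0515). Fitting the replicate number as a block lost it too (0.0563).

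Genes of ATP-sensitive channels, which open when cellular ATP is low, were measured with their sulfonylurea receptor genes. On the reference assembly GRCz12tu kcnj11 is the neighbour of abcc8, and kcnj8 that of abcc9. The pore gene kcnj11 (13156985, Kir6.2) read 7.01, 7.24 and 7.30 at the end of treatment, 6.92, 6.86 and 7.20 at 2 days, 6.91, 7.09 and 6.83 at 5 days, 7.36, 7.0 and 6.86 at 9 days, and 7.18, 7.82 and 8.11 in control. Control replicate 1 lay among the other groups and the 2 other control arrays above them. It fell by 0.71 ± 0.19 at 2 days (adjusted p = 0.0209) and by 0.76 ± 0.19 at 5 days (0.0231), and the differences of -0.52 ± 0.19 at the end of treatment (0.0569) and -0.63 ± 0.19 at 9 days (0.0532) were just outside the threshold. Both calls were lost without control replicate 2, without control replicate 3, and without either of 2 arrays of the recovering group (2 days replicates 1 and 2, 5 days replicates 1 and 3). They were also lost with every cluster (adjusted p = 0.0765 and 0.0834) and with only the arrays compared (0.0562 and 0.0678).

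The other pore gene, kcnj8 (13181501, Kir6.1), known in mammals and zebrafish as a gene of vascular mural cells, read 6.47, 6.34 and 6.59 at the end of treatment, 6.10, 6.18 and 6.08 at 2 days, 5.58, 6.25 and 6.30 at 5 days, 5.94, 5.81 and 5.41 at 9 days, and 5.75, 6.02 and 5.91 in control. The end of treatment arrays were the highest. It rose by 0.57 ± 0.17 at the end of treatment (adjusted p = 0.0216), a call lost without control replicate 1 or 3 or end of treatment replicate 1 or 3 and with every cluster (0.0659), and its differences in recovery did not pass the test. The 8 mural cell markers averaged 8.23 to 8.45 at the end of treatment, 7.86 to 8.10 at 2 days, 7.65 to 7.91 at 5 days and 7.38 to 7.75 at 9 days, against 7.78 to 8.18 in control. They did not move together. At the end of treatment 2 were called higher, ndufa4l2a (1.08 ± 0.18) and acta2 (0.73 ± 0.23), and 1 lower, notch3 (-0.44 ± 0.13). The other 5, pdgfrb among them (-0.17 ± 0.17), were not called. The part of mural cells in the result for kcnj8 was not tested. The receptor genes abcc8 and abcc9 differed by -0.41 ± 0.17 (adjusted p = 0.0925) and -0.09 ± 0.17 (0.765) at the end of treatment and passed no test against control.

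The G protein-gated genes kcnj5 (13060778) and kcnj6 did not pass the test. For kcnj5, a subunit of the acetylcholine-activated current, levels were 5.22, 5.50 and 5.95 at the end of treatment, 5.72, 5.75 and 5.65 at 2 days, 6.45, 5.08 and 5.73 at 5 days, 5.74, 5.86 and 5.44 at 9 days, and 5.75, 5.87 and 6.28 in control. The end of treatment and control arrays overlapped, and their difference was -0.41 ± 0.26 (95% confidence interval -0.96 to 0.14). The remaining inward rectifiers were kcnj13, a gene of pigment pattern in zebrafish, and kcnj15. Neither passed the test against control, with differences of -0.51 to 0.42.

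Of the 4 tandem-pore genes 2 rose at the end of treatment, beside 21.1% of all genes of that brightness, and 1 of these calls, that of kcnk6, rested on the settings of the fit. The gene kcnk1a (12986559) read 5.57, 5.83 and 5.63 at the end of treatment, 5.22, 5.09 and 4.96 at 2 days, 4.77, 5.25 and 4.94 at 5 days, 4.94, 4.74 and 5.45 at 9 days, and 5.16, 5.05 and 4.83 in control. Its end of treatment arrays were above all others, and it rose by 0.66 ± 0.17 (adjusted p = 0.00916), with differences of 0.08, -0.03 and 0.03 at 2, 5 and 9 days. The rise of kcnk6, 0.32 ± 0.11 (adjusted p = 0.0493), was lost without any 1 of 11 of the 15 arrays. With arrays centred on their median it was 0.20 (adjusted p = 0.222), and the call was also lost with cyclic loess (0.105), every transcript cluster (0.112), array weights (0.0558) and no variance trend (0.0575). Fitting the replicate number as a block lost the kcnk6 call too (0.0692). The TASK channel gene kcnk3b (13048038) read 5.50, 5.21 and 5.21 at the end of treatment, 5.34, 5.22 and 4.96 at 2 days, 4.88, 5.28 and 4.84 at 5 days, 5.28, 5.09 and 4.90 at 9 days, and 5.22, 4.73 and 4.25 in control. The control arrays spread widely, and its difference of 0.57 ± 0.20 at the end of treatment did not pass the test (adjusted p = 0.0526). The fourth, kcnk12l, differed from control by 0.10 to 0.17 and did not pass it either.

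Both calcium-activated genes belong to the kcnn family. The gene kcnn4 (13038655) encodes the intermediate-conductance channel, known from mammals as the calcium-activated channel of red blood cells. It read 5.43, 5.24 and 5.30 at the end of treatment, 5.88, 6.10 and 5.78 at 2 days, 5.54, 5.74 and 5.86 at 5 days, 5.58, 5.60 and 5.37 at 9 days, and 5.73, 6.08 and 5.77 in control. End of treatment arrays lay below all control and all 2-day arrays. It fell by 0.54 ± 0.13 at the end of treatment (adjusted p = 0.00611) and differed by 0.06 ± 0.13 at 2 days. The erythroid markers averaged 9.25 at the end of treatment against 8.07 in control. Of these 6 markers 4 were called higher then, while gata1a (0.06 ± 0.16) and epb41b (-0.26 ± 0.23) were not called. At 2 days all 6 were called higher than in control. The part of red cells in the result for kcnn4 was not tested. The small-conductance channel gene kcnn1a differed from control by -0.41 to -0.33 and did not pass the test.

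**Figure D3:**
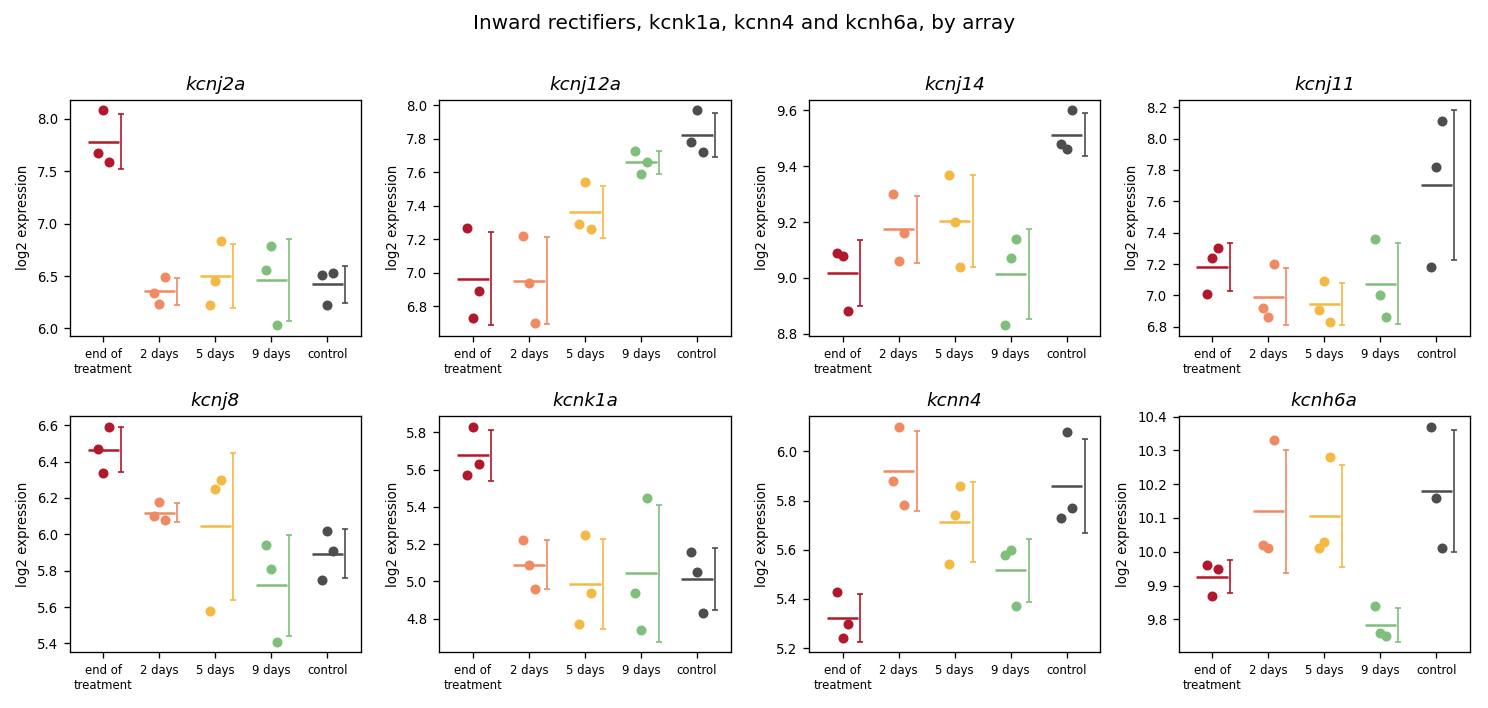
Log2 expression of 5 inward rectifier genes, kcnk1a, kcnn4 and kcnh6a on each of the 15 arrays (points), with the group mean (line) and SD (bar, n = 3); each panel has its own vertical scale. kcnj2a and kcnk1a are highest at the end of treatment, at means of 7.78 and 5.67 against 6.42 and 5.01 in control, and kcnj12a and kcnj14 lie below control there.

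The comparisons with the end of treatment ask which genes had moved once PHZ was withdrawn. They share the end of treatment arrays. At 2 days 2 of the 29 genes were higher and 4 lower (20.7%, beside 12.5% of genes of that brightness, 5.72% higher and 6.73% lower), at 5 days 2 higher and 5 lower (24.1%, beside 18.9%, 6.68% higher and 12.2% lower), and at 9 days 5 higher and 6 lower (37.9%, beside 28.6%, 11.7% higher and 16.9% lower). For kcnj2a the differences were -1.43 ± 0.19, -1.28 ± 0.19 and -1.32 ± 0.19 at 2, 5 and 9 days (adjusted p = 0.000166, 0.000259 and 0.0001). For kcne4 the differences were -1.25 ± 0.28, -1.21 ± 0.28 and -2.38 ± 0.28 at 2, 5 and 9 days (adjusted p = 0.00891, 0.00774 and 1.53e-05), and the first was lost without 2 days replicate 1. For kcnc4 they were -0.60 ± 0.26, -1.12 ± 0.26 and -1.61 ± 0.26, of which the first did not pass the test (adjusted p = 0.19). For kcnab1a they were -0.96, -1.11 and -1.16, each ± 0.20 and each called. The gene kcnk1a was called lower at all 3 times, by 0.58, 0.69 and 0.63, but these calls were lost without any 1 of 11, 2 and 3 arrays, and with every cluster (adjusted p = 0.147, 0.0518 and 0.0559). Its 2-day call was also lost with arrays centred on their median (0.0627), cyclic loess (0.0503), no variance trend (0.0561) and the replicate number as a block (0.0739).

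Among the genes that were higher than at the end of treatment, kcnab2b rose by 0.56 ± 0.10 at 2 days, 0.94 ± 0.10 at 5 days and 0.79 ± 0.10 at 9 days (adjusted p = 0.00172, 1.2e-05 and 2.75e-05). The silent subunit gene kcng3 rose by 0.54 ± 0.12 at 5 days and 0.44 ± 0.12 at 9 days. At 9 days kcng1 was 1.92 ± 0.41 higher (adjusted p = 0.00281), or 1.21 without end of treatment replicate 1, and kcnj12a 0.70 ± 0.14 higher (adjusted p = 0.00232). The inward rectifier gene kcnj15 rose by 0.49 ± 0.14 at 9 days, a call lost without any 1 of 3 arrays (end of treatment replicates 1 and 2, 9 days replicate 2) and with every cluster (adjusted p = 0.0699), and kcnn4 by 0.60 ± 0.13 at 2 days, a call lost without 2 days replicate 2. The ATP-sensitive channel gene kcnj8 fell by 0.75 ± 0.17 between the end of treatment and 9 days (adjusted p = 0.0053).

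**Figure D4:**
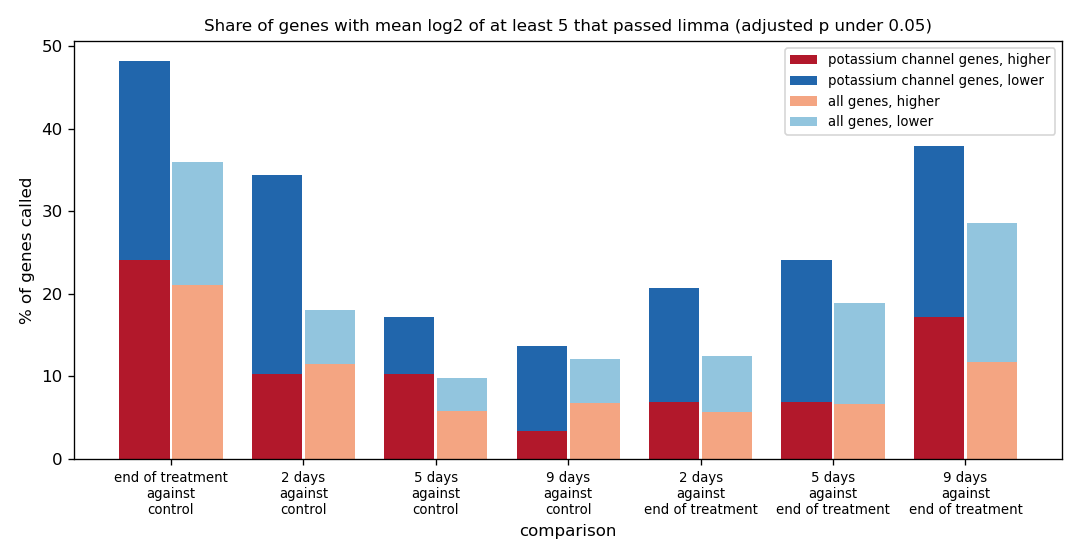
Percent of genes with a mean log2 of at least 5 that passed limma at an adjusted p under 0.05 in each of 7 comparisons, for the 29 potassium channel genes (dark bars) and all 11355 genes (pale bars), split into higher and lower. Between the end of treatment and control the shares were 48.3% and 36%, and between 9 days and control 13.8% and 12.2%.

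The 90 dim genes gave few calls. At the end of treatment 1 rose and 2 fell (3.33%, beside 7.36% of all 7905 genes of that brightness). In the other 6 comparisons limma called 0 of the 90, with 4 to 10 at an unadjusted p under 0.05, beside 583 to 931 of the 7905. Of all dim genes, 2.85%, 1.51% and 0.911% were called at 2, 5 and 9 days against control, and 1.54%, 2.99% and 5.22% against the end of treatment. The gene kcnh8, of the ELK channel family, read 3.64, 3.35 and 3.57 at the end of treatment, against 4.51, 3.87 and 4.0 in control, and fell by 0.61 ± 0.17 (adjusted p = 0.0167). A Kir6.2 relative, kcnj11l, read 2.95, 3.24 and 2.80 against 2.37, 2.47 and 2.59 in control, and rose by 0.53 ± 0.16 (adjusted p = 0.0226). The tandem-pore gene kcnk7 read 3.54, 3.53 and 3.55 against 4.04, 4.03 and 3.78 in control, and fell by 0.41 ± 0.15 (adjusted p = 0.0485). These 3 calls were lost without any 1 of 2, 3 and 12 arrays, and with every cluster (adjusted p = 0.0528, 0.0684 and 0.116).

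Several genes known from mammalian repolarisation were among the dim ones. Of the 23 repolarisation genes listed, 20 were measured. The other 3, kcnh2b, kcne1 and kcna5, were not among the genes with a single symbol, so nothing is known of them here. Over the 15 arrays the Kv4 genes kcnd2 and kcnd3 lay between 3.36 and 4.17 and between 2.69 and 3.26, and their accessory gene kcnip2 between 3.39 and 4.37. The ERG gene kcnh2a lay between 3.71 and 4.38, and kcnq1.2, the second kcnq1 gene, between 3.76 and 4.46. Of the inward rectifiers, kcnj2b lay between 2.69 and 3.18, kcnj12b between 2.73 and 3.82, kcnj3a between 3.06 and 3.98 and kcnj3b between 2.87 and 3.49. The tandem-pore genes kcnk2a and kcnk3a lay between 3.80 and 4.42 and between 3.52 and 4.22. Signal above background was not analysed here, and a dim value does not show that a gene is silent. By role the dim genes were 30 of 36 voltage-gated, 21 of 30 inward rectifier, 16 of 20 tandem-pore, 8 of 13 accessory, 8 of 11 silent subunit, and 7 of 9 calcium-activated or sodium-activated genes. On the reference assembly the kcnj1a genes, all dim, follow each other from kcnj1a.6 to kcnj1a.1, which is next to kcnj5. There kcnj2a is the neighbour of the dim kcnj16a.

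Genes that work beside these channels (potassium pumps and carriers, anchoring proteins, receptors and transcription factors of the heart's electrical pattern) were counted as 1 list of 36, of which 27 were measured, 21 with a mean of at least 5. All calls against control lay among these 21. The list was chosen with earlier results of these data known, so its shares and median are descriptions and do not show an excess. At the end of treatment 4 rose and 8 fell (57.1% of the 21, beside 36% of genes of that brightness), at 2 days 2 rose and 5 fell (33.3%, beside 18%), at 5 days 1 rose and 3 fell (19%, beside 9.76%), and at 9 days 0 rose and 3 fell (14.3%, beside 12.2%). The median difference of the 21 at the end of treatment was -0.26, beside 0.02 for genes of that brightness. The largest fall was that of atp1b3b, a beta subunit gene of the sodium and potassium pump, which read 6.63, 6.76 and 6.59 at the end of treatment, 7.34, 7.35 and 7.34 at 2 days, 7.63, 7.46 and 7.77 at 5 days, 8.09, 7.67 and 8.25 at 9 days, and 8.57, 8.70 and 8.78 in control. It was below control on every array of every group and fell by 2.02 ± 0.12, 1.34 ± 0.12, 1.06 ± 0.12 and 0.68 ± 0.12 at the 4 times (adjusted p = 1.4e-08, 3.96e-06, 7.49e-05 and 0.00357). The alpha subunit gene atp1a3b fell by 0.96 ± 0.10 at the end of treatment (adjusted p = 3.89e-06) and differed by -0.15 to 0.05 afterwards. Pump genes did not all fall: another alpha subunit gene, atp1a1b, rose by 0.59 ± 0.19 at the end of treatment (adjusted p = 0.0292). At 2 days atp1a1b was higher by 0.70 ± 0.19 (adjusted p = 0.0236), and it was not called later. The beta subunit gene atp1b2a was called lower at 9 days (-0.41 ± 0.11, adjusted p = 0.0307). At the end of treatment the remaining pump genes measured were not called. Among them atp1b1b differed then by -1.68 ± 0.72 (adjusted p = 0.107), with arrays below control without overlap. The ubiquitin ligase gene nedd4l, which in mammals marks ion channels for removal, fell by 0.57 ± 0.07 (adjusted p = 2.38e-05) and the transcription factor gene tbx5a by 0.50 ± 0.07 (7.21e-05). The transcription factor gene irx5a, whose mouse counterpart shapes the potassium current gradient across the ventricle wall, rose by 0.79 ± 0.13 at the end of treatment, 0.73 ± 0.13 at 2 days and 0.74 ± 0.13 at 5 days, and differed by 0.07 ± 0.13 at 9 days. Also called higher at the end of treatment were dlg1a (0.50 ± 0.16) and slc12a7a (0.35 ± 0.12). Also called lower then were dlg1b (-0.61 ± 0.13), tbx3a (-0.56 ± 0.16), slc12a7b (-0.51 ± 0.09) and slc12a2 (-0.50 ± 0.14).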

How the data were processed

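Total RNA (250 ng per array) was labelled with biotin and hybridised to whole-transcript arrays, per the labels' protocols. The authors deposited log2 values per transcript cluster, made with RMA in the R package oligo, per the submitters' processing notes. The sources used here do not give versions, the summary level or the genome build, so no coordinates are printed. RMA makes the arrays' distributions alike and compresses differences of dim genes, and array data hold no read depth, so the number of arrays limits precision.

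Of 75212 clusters 21661 had an annotated gene, 20806 a single symbol and 855 several, and those with several were left out, among them 1 cluster shared by kcnma1a and kcnma1b. Names came from the platform annotation, with 20323 clusters matched by gene ID to the GRCz12tu gene table, and 114 of the 119 potassium channel genes matched. Symbols in capitals (KCNH3, KCNH4, KCNK12, KCNMB3 and KCNQ1) were kept as separate genes. They had no gene ID match, all were dim, and they may be orthologue names of genes also listed in lower case. The 119 may therefore hold duplicates. For 5 of the 119 genes several clusters existed.

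limma 3.58.1 in R 4.3.3 was fitted to 19260 genes over all 15 arrays with a mean for each group and a variance trend, and p was adjusted by Benjamini-Hochberg within each comparison over all these genes, with a threshold of 0.05. Every gene with a mean log2 of at least 5 was named, and of the dim ones those called and a list of repolarisation genes. The members and gene lists were chosen with earlier results of these data known. Replicates are labelled biological, and with 3 against 3 arrays an exact permutation test of 1 gene cannot go below 0.1, so none was used. No batch is labelled. The fit was first tested on simulated data. For the end of treatment against control it recovered 31% of 100 genes given a log2 change of 0.5 and 87% of 100 given 1. These shares hold for the simulated settings, with few changed genes among 19260 and 7 false calls. In the data 4669 genes were called in that comparison. The adjustment of p therefore differs, and the shares do not carry over to the data. A difference near 0.5 that did not pass the test is still not shown to be absent. Alternatives covered scaling, variance models, the genes and arrays fitted, the replicate number as a block and leaving out each array.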

Additional observations from a re-analysis of the deposited data

Results flagged for a closer look

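Differences between the effect against control in recovery and that at the end of treatment were tested directly in limma, and control cancels out of them, so each is the same value as the comparison of the recovery group with the end of treatment. In 24 cases among the 29 brighter genes the effects differed at an adjusted p under 0.05. These were 20.7% of the 29 at 2 days, 24.1% at 5 days and 37.9% at 9 days. Of all genes of that brightness 12.5%, 18.9% and 28.6% were called in the same comparisons.

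At 2 days the log2 effect minus that at the end of treatment was -1.43 for kcnj2a, -1.25 for kcne4, -0.96 for kcnab1a, -0.58 for kcnk1a, 0.56 for kcnab2b and 0.60 for kcnn4. At 5 days it was -1.28 for kcnj2a, -1.21 for kcne4, -1.12 for kcnc4, -1.11 for kcnab1a, -0.69 for kcnk1a, 0.54 for kcng3 and 0.94 for kcnab2b. At 9 days it was -2.38 for kcne4, -1.61 for kcnc4, -1.32 for kcnj2a, -1.16 for kcnab1a, -0.75 for kcnj8, -0.63 for kcnk1a, 0.44 for kcng3, 0.49 for kcnj15, 0.70 for kcnj12a, 0.79 for kcnab2b and 1.92 for kcng1. The value for kcng1 was 1.21 without end of treatment replicate 1.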

How the results depend on the processing

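Of 60 calls of single genes, 37 held in every refit, left-out arrays included, and none reversed; 29 of the 37 were also at least 1.5-fold and 8 were not. Fitting every transcript cluster lost 19 calls, fitting only the arrays compared 8, no variance trend 6, the replicate block 4, cyclic loess 4, centring on array medians 3, a robust variance 2 and array weights 1. Against 14 calls at the end of treatment, 9 were at least 1.5-fold. At 2 days (10 calls) there were 6 over every cluster and 6 at 1.5-fold, at 5 days (5 calls) 3 over every cluster and 2 with only the arrays compared, and at 9 days (4 calls) 1 over every cluster, 2 without a trend and 2 at 1.5-fold. The 2-day count against the end of treatment (6) was 3 with a mean of at least 6, and the F test (16) called 10 over every cluster. Leaving out 1 array gave 12 to 14, 5 to 11, 2 to 6 and 1 to 6 calls against control, in time order, 4 to 6, 7 to 8 and 9 to 11 against the end of treatment, and 13 to 17 by the F test. Same-numbered arrays deviated with correlations of -0.10 to 0.10, so the numbers are not taken to pair arrays; with the replicate block the counts were 14, 9, 5 and 5 against control, 5, 7 and 11 against the end of treatment, and 16 by the F test. Centring arrays shifted the median of all genes by -0.116 at the end of treatment, and the share of higher among all calls was then 39.7% instead of 60.4%, with 41.6% instead of 64.7% at 2 days, 46.6% instead of 61.3% at 5 days, 46.8% instead of 56.2% at 9 days, and, against the end of treatment, 54.3% instead of 35.1% at 5 days and 58.1% instead of 38.8% at 9 days. The cause of these differences was not tested, except that leaving out arrays or adding clusters changes what is fitted. The share of all genes called in each refit is not given, so changes in the counts are not shown to be particular to the members.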
